A study of Mus musculus with 12 samples.

Results

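The genes described are the VEGF ligands *Vegfa*, *Vegfb*, *Vegfc* and *Pgf*, the receptor tyrosine kinases *Kdr*, *Flt1* and *Flt4*, and the co-receptors *Nrp1* and *Nrp2*. They were chosen by gene symbol, 9 of the 36186 gene rows measured. Of the 10936 rows that reached at least 5 NRPKM in at least 3 of 12 libraries, 6 were members: *Vegfa*, *Vegfb*, *Pgf*, *Flt4*, *Nrp1* and *Nrp2*. *Kdr*, *Flt1* and *Vegfc* reached 5 NRPKM in 2 libraries only, so their tests come from a fit without that filter. *Flt4* passed only through the 3 hypertrophic libraries, and *Pgf* through hypertrophic replicates 2 and 3 and proliferative replicate 3, so counts over the members that passed are partly set by the filter and the counts over all 9 are given without it. NRPKM is the read density per transcript length and library depth (RPKM), normalized further by the authors, so levels of different genes are compared per length.

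RNA-Seq was carried out on forelimb zeugopod chondrocytes, the cartilage cells of the developing radius and ulna, from mouse embryos at E15.5 on a mixed 129/CD-1 background. Laser capture microdissection gave 4 groups of 3 libraries each: WT resting, WT proliferative and WT hypertrophic chondrocytes, and chondrocytes of *aadd* mutants. The sample titles call the hypertrophic libraries hyperproliferative, and the compartment was taken as hypertrophic from the study's text. The *aadd* embryos carry homozygous frameshift mutations in the first exons of 6 genes, *Hoxa9*, *Hoxa10*, *Hoxa11*, *Hoxd9*, *Hoxd10* and *Hoxd11*, and their undifferentiated chondrocytes were labelled as the resting compartment. According to the study, all chondrocytes of the small *aadd* zeugopod were captured together, without separating zones. In *aadd* against resting chondrocytes, genotype and the part captured therefore cannot be told apart. The captured cells included some perichondrium according to the study's methods. The labels name no animals, so P values measure the spread between these libraries.

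VEGF ligands are secreted proteins that bind receptor tyrosine kinases on endothelial cells and drive the growth of blood and lymphatic vessels. VEGFA and PGF bind the receptor encoded by *Flt1*, VEGFA also binds that of *Kdr*, and VEGFC binds that of *Flt4*, while the neuropilins act as co-receptors and also bind class 3 semaphorins. In the growth plate, hypertrophic cartilage secretes VEGFA and is invaded by vessels together with osteoclasts and bone-forming cells.

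Library depth was estimated at 1890000 to 3240000 reads from the value of 1 read. This estimate takes NRPKM as plain RPKM, so the further normalization may shift it. Hypertrophic replicate 1 stood apart from replicates 2 and 3. The 10 endothelial markers summed to 24.2 NRPKM in replicate 1, and to 318 and 224 in replicates 2 and 3, against 9.64 to 59.6 in the 9 libraries of the other groups. The 10 osteoclast markers summed to 62.1, 978 and 666 in hypertrophic replicates 1, 2 and 3, and to 40.5 to 73.1 elsewhere. Of 10 hypertrophic chondrocyte markers, all were called higher in hypertrophic than in resting chondrocytes by the criteria given below, where 5.84% of all genes tested were. Against proliferative chondrocytes 4 were called higher, where 5.32% of all genes were. These were *Spp1*, *Ibsp*, *Alpl* and *Col10a1*, with limma adjusted P of 0.12 to 0.21, and the first 3 are also on the osteoblast list. *Col10a1*, the collagen of hypertrophic cartilage, was at 264, 166 and 221 NRPKM in replicates 1, 2 and 3 against at most 111 in any other library, but *Ihh*, a signal of prehypertrophic cells, was at 56.3, 9.54 and 15.3 against 20.1 to 40.5 in proliferative libraries, and *Panx3* and *Pth1r* in replicates 2 and 3 overlapped with proliferative. *Mmp13*, a late hypertrophic and bone collagenase, was at 3.05, 735 and 661, and the summed cartilage matrix markers were at 3000, 706 and 1030. A set of 1600 genes shorter than 2 kb held olfactory, vomeronasal and taste receptor genes and keratin-associated protein genes. In replicate 1, 33.8% of them held a read, against 11.7% and 7.56% in replicates 2 and 3 and 9.19% to 33.6% in the 9 other libraries. The 6 mutated *Hox* genes were not used as a check of the labels, since a frameshift need not remove the RNA. The medians of *Hoxd9*, *Hoxd10* and *Hoxd11* were 23.2, 47.3 and 30 NRPKM in *aadd* and 6.18, 12.3 and 5.8 in WT resting. Those of *Hoxa9*, *Hoxa10* and *Hoxa11* were 17, 12.2 and 10 in *aadd* and 13.4, 20.6 and 23 in WT resting.

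The promoters of the endothelial receptors *Kdr* and *Flt1* and of *Flt4* and *Nrp2* are shown because *Kdr* and *Flt1* were low and *Flt4* and *Nrp2* high in hypertrophic replicate 1. Each is the 250 bases before the RefSeq start site in GRCm38.p6, 5′ to 3′ on the gene's strand. Capitals mark a hypoxia response core, ACGTG or GCGTG, or an ETS core, AGGAAG, on either strand.

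Kdr promoter, chr5:75978456-75978705, minus strand: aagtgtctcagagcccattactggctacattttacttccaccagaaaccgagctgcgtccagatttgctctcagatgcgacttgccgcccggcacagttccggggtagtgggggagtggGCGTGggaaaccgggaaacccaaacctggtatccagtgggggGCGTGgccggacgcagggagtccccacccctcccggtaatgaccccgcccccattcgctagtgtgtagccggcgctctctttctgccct
Flt1 promoter, chr5:147726012-147726261, minus strand: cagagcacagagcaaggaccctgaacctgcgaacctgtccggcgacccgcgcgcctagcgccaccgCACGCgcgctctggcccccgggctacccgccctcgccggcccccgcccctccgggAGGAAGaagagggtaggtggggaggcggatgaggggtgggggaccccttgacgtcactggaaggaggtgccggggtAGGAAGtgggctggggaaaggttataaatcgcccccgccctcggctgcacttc
Flt4 promoter, chr11:49609429-49609678, plus strand: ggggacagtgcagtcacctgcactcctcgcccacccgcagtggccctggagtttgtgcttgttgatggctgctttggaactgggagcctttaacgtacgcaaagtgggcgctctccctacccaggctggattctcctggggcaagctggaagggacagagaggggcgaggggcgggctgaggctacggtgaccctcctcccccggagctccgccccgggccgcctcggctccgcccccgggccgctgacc
Nrp2 promoter, chr1:62703067-62703316, plus strand: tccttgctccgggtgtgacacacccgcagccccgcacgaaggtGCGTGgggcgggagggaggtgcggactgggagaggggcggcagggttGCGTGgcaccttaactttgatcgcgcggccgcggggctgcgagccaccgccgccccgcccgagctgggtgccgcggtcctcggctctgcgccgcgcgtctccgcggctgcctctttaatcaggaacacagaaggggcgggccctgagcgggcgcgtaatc

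The *Kdr* window held 2 hypoxia cores and no ETS core, the *Flt1* window 1 hypoxia core and 2 ETS cores, the *Nrp2* window 2 hypoxia cores, and the *Flt4* window none of these. Over 32851 promoter windows, 38.6% held a hypoxia core and 29.5% an ETS core. A RUNX core, TGTGGT, was in none of the members' windows and in 14% of all windows. A match is a description of letters in the window.

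*Flt4*, the receptor for VEGFC on chromosome 11 (mm10, 49609679 to 49652739, plus strand), was the member with the largest fitted difference between hypertrophic and resting chondrocytes. Its NRPKM were 0.232, 0.428 and 0.536 in WT resting, 2.1, 0.842 and 1.78 in WT proliferative, 16.7, 23.7 and 18.8 in WT hypertrophic and 0.492, 1.92 and 0.975 in *aadd*. All 3 hypertrophic libraries, replicate 1 included, lay above all 9 others, whose highest value was 2.1. The group means were 19.7 ± 3.58 (SD, n = 3) in hypertrophic, 1.57 ± 0.652 in proliferative, 1.13 ± 0.725 in *aadd* and 0.399 ± 0.154 in resting chondrocytes. The values rest on about 240 to 480 reads in hypertrophic libraries and 4.3 to 34 in the others.

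*Nrp2*, a co-receptor for VEGFC and semaphorins on chromosome 1 (62703317 to 62818692, plus strand), was the receptor gene with the highest level in every library. It measured 17.7, 17.9 and 11.9 NRPKM in resting, 37.5, 14 and 26.2 in proliferative, 62, 70.1 and 74.9 in hypertrophic and 16.7, 18.4 and 17.6 in *aadd* libraries. The 3 hypertrophic values again lay above all 9 others, whereas proliferative overlapped with resting and *aadd*. Among all genes tested, 5.73% had their 3 hypertrophic libraries above the 9 others. *4930487H11Rik* overlaps *Nrp2* and ranged from 1.3 to 21.1 NRPKM, and whether counting used strand is not given in the sources used here.

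*Nrp1*, a co-receptor for VEGFA and semaphorin 3A on chromosome 8 (128359073 to 128505475, plus strand), measured 2.15, 1.49 and 2.44 NRPKM in resting, 12.5, 12.9 and 9.78 in proliferative, 7.94, 29 and 25.6 in hypertrophic and 2.16, 5.41 and 2.05 in *aadd* libraries. Resting and *aadd* were low and overlapped. The 3 proliferative libraries lay between hypertrophic replicate 1 and hypertrophic replicates 2 and 3.

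*Kdr*, the main signalling receptor for VEGFA on chromosome 5 (75933270 to 75978428, minus strand), was at 2.17 NRPKM or less outside hypertrophic replicates 2 and 3. Its values were 0.226, 0.948 and 0.935 in resting, 1.12, 1.27 and 0.561 in proliferative, 1.52, 22.5 and 16.2 in hypertrophic and 1.14, 2.17 and 0.327 in *aadd* libraries. Hypertrophic replicate 1 lay inside the range of the 9 other libraries, above 8 of them. *Flt1*, a receptor that binds VEGFA and PGF on the same chromosome (147562196 to 147725988, minus strand), showed the same split. It measured 0.408, 0.544 and 0.473 in resting, 0.425, 0.769 and 1.55 in proliferative, 1.38, 15.53 and 11.13 in hypertrophic and 0.861, 3.5 and 0.784 in *aadd* libraries. For *Flt1*, hypertrophic replicate 1 lay above 7 of the 9 other libraries.

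*Vegfa*, the main angiogenic ligand on chromosome 17 (46016993 to 46032377, minus strand), was measured at 28.1, 57.6 and 36.4 NRPKM in resting, 19.7, 22.5 and 20.7 in proliferative, 18, 33.8 and 48.1 in hypertrophic and 26.5, 25.2 and 22.2 in *aadd* libraries. Hypertrophic replicate 1 was the lowest of all 12 libraries and replicate 3 the second highest, so the group overlapped with every other group. *Vegfb*, a ligand of the *Flt1* product on chromosome 19 (6982472 to 6987651, minus strand), stood at 38.4, 35 and 26.6 in resting, 32.5, 21.6 and 9.15 in proliferative, 23.4, 23.8 and 14.9 in hypertrophic and 31.1, 27.3 and 25.6 in *aadd* libraries. It was higher in all 3 resting than in all 3 hypertrophic libraries. Both ligands were above 5 NRPKM in all 12 libraries, and *Vegfa* made up 34.6% to 58.8% of the summed NRPKM of the 5 ligands, *Figf* included.

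*Vegfc*, the lymphangiogenic ligand on chromosome 8 (54077532 to 54186454, plus strand), measured 0.72, 3.1 and 1.46 NRPKM in resting, 0.812, 0.167 and 0.952 in proliferative, 2.28, 14.1 and 10.3 in hypertrophic and 2.57, 4.75 and 3.9 in *aadd* libraries. *Pgf*, a ligand of the *Flt1* product on chromosome 12 (85166641 to 85177285, minus strand), measured 0.647, 0.265 and 0.748 in resting, 0.243, 0 and 5.12 in proliferative, 0.546, 21.1 and 26.3 in hypertrophic and 0, 0.58 and 0.445 in *aadd* libraries. Both were high in hypertrophic replicates 2 and 3 and not in replicate 1. For 7 of the 9 members, *Vegfa* and *Vegfb* being the exceptions, hypertrophic replicates 2 and 3 lay above all 10 other libraries. Of the 6 members that passed the filter these were 4, *Pgf*, *Flt4*, *Nrp1* and *Nrp2*, where 16.4% of all genes that passed did so. *Flt4* passed only through hypertrophic libraries and *Pgf* mostly through replicates 2 and 3, so this count is partly set by the filter. For the 7 of 9, the share over all rows without the filter was not computed. *Pgf* rested on 0 to 3 reads in 9 of the 12 libraries. *Figf*, the remaining VEGF ligand gene, was between 0.164 and 3.63 NRPKM in all 12 libraries and was not tested with the filter.

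**Figure D1:**
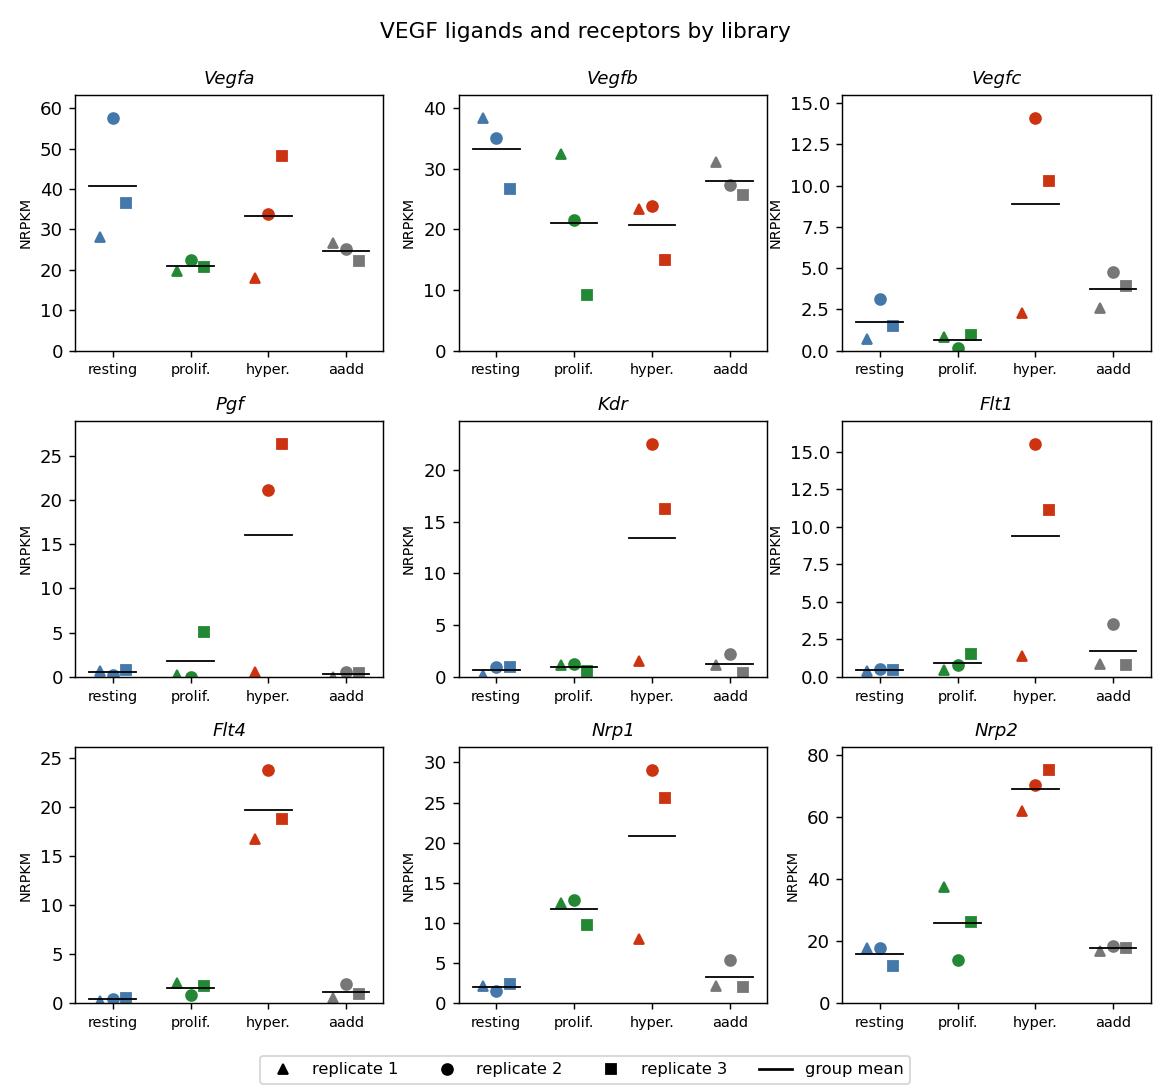
NRPKM of each member (y axis, linear, from 0) in the 12 libraries by group, with the replicate number as the symbol and a line at each group mean. For *Flt4* and *Nrp2* the 3 hypertrophic libraries sit above the 9 others, while for *Kdr*, *Flt1*, *Vegfc* and *Pgf* hypertrophic replicate 1 sits with the other groups.

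Hypertrophic replicates 2 and 3 were set beside replicate 1 as a description, with no test. The mean of replicates 2 and 3 was 43.5 times replicate 1 for *Pgf*, 12.8 times for *Kdr*, 9.66 times for *Flt1* and 5.36 times for *Vegfc*. It was 3.44 times for *Nrp1*, 2.27 times for *Vegfa*, 1.27 times for *Flt4*, 1.17 times for *Nrp2* and 0.827 times for *Vegfb*. Of the 10936 genes that passed the filter, which do not include *Kdr*, *Flt1* and *Vegfc*, 2.05% had a ratio of 5 or more and the median log2 ratio was 0.05. The median log2 ratio of the endothelial list was 3.50, with all 10 genes higher in both replicates, and that of the osteoclast list was 5.15, also 10 of 10. It was 2.69 for macrophage markers, 2.09 for pericyte markers, 1.15 for osteoblast markers and 2.68 for erythroid markers. It was -0.38 for hypertrophic chondrocyte markers and -2.01 for cartilage matrix markers. In bulk samples, fewer cells of a type and less RNA per cell cannot be told apart, and the part of these cell types in the members' ratios was not tested.

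**Figure D2:**
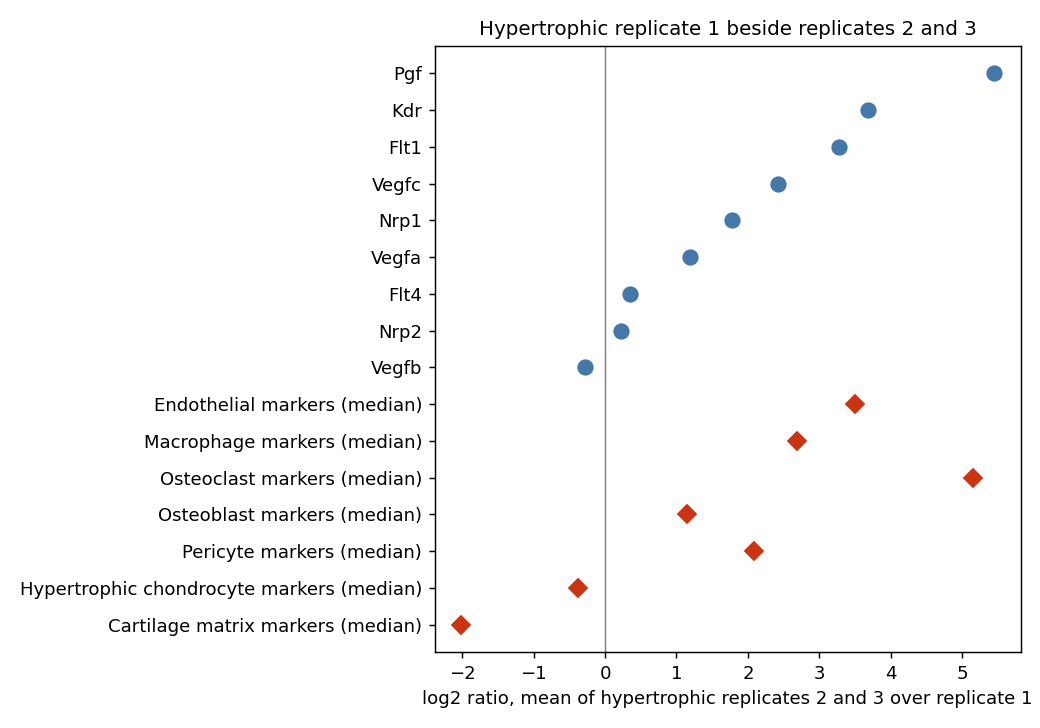
log2 ratio of the mean of hypertrophic replicates 2 and 3 over replicate 1 (x axis), for the 9 members as circles and for the median gene of 7 marker lists as diamonds. *Pgf*, *Kdr* and *Flt1* lie at 3.27 or more with the endothelial and osteoclast lists, and *Flt4*, *Nrp2* and *Vegfb* lie near 0.

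Set against the endothelial markers in the same library, *Kdr* was 6.26% of their summed NRPKM in hypertrophic replicate 1 and 7.09% and 7.25% in replicates 2 and 3. *Flt1* was 5.7% in replicate 1 and 4.88% and 4.98% in the other two. *Flt4* was 69.1% in replicate 1 and 7.44% and 8.4% in replicates 2 and 3, and its range in the 9 other libraries was 1.49% to 13.8%. *Flt4* made up 85.2% of the summed NRPKM of the 3 receptor kinases in replicate 1, against 38.3% and 40.7% in replicates 2 and 3. *Nrp2* was 256% of the endothelial sum in replicate 1, 22% and 33.5% in replicates 2 and 3, and 30.9% to 247% elsewhere. In replicate 1 the endothelial markers *Pecam1*, *Cdh5* and *Cldn5* were at 2.41, 7.3 and 0.302 NRPKM, with none of the 10 markers at 0. Over the proliferative mean, the median log2 ratio of the 10 was 0.87 in replicate 1 and 4.23 in replicates 2 and 3. *Eng*, the highest of the 10 in every resting and *aadd* library, was at 4.06 in replicate 1 and 10.4 to 24.5 in those libraries. Of the lymphatic endothelial markers in replicate 1, *Prox1* was at 0.392 and *Lyve1* at 0.164, and the 5 markers summed to 5.48 NRPKM, of which *Pdpn* made 3.87. *Mmrn1* was at 1.05 in replicate 1, 1.89 and 1.95 in replicates 2 and 3 and at most 0.267 in the 9 other libraries, so it was highest in the 3 hypertrophic libraries as *Flt4* was, and *Ccl21a* was at 0 in all 12. The part of lymphatic cells in the *Flt4* values was not tested. The lymphatic sum was 13.5 and 16.5 in replicates 2 and 3 and 3.2 to 15.4 in the other groups.

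**Figure D3:**
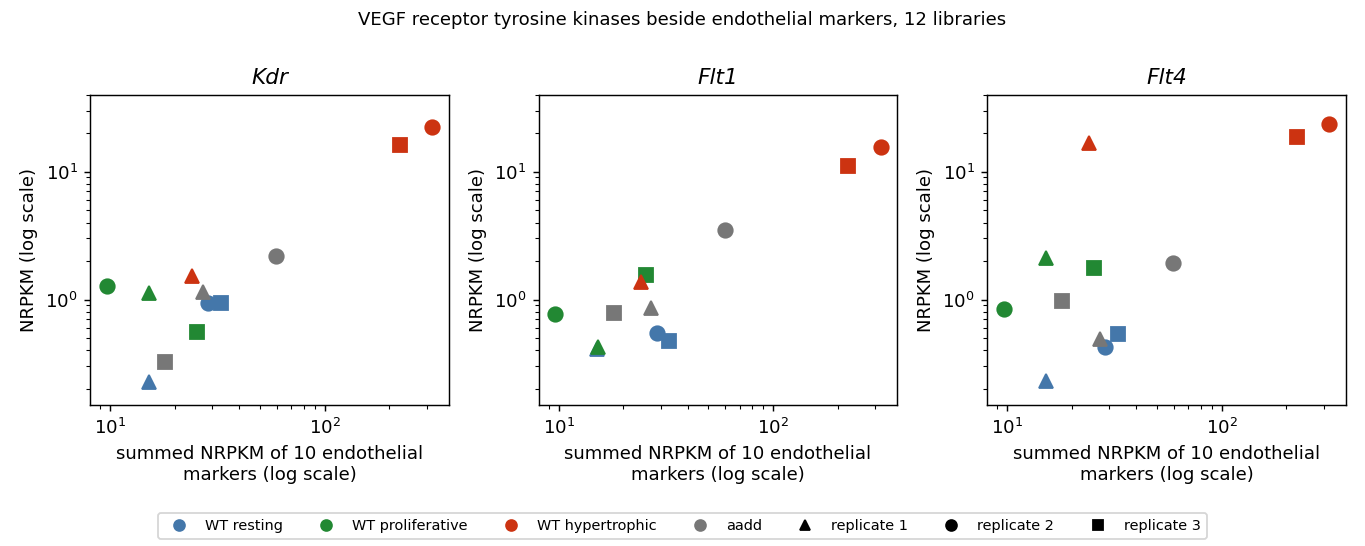
NRPKM of *Kdr*, *Flt1* and *Flt4* (y axis, log scale) against the summed NRPKM of 10 endothelial markers (x axis, log scale) in each of 12 libraries, coloured by group with the replicate as the symbol. In hypertrophic replicate 1 the endothelial sum is 24.2, inside the range of the 9 non-hypertrophic libraries. *Kdr* and *Flt1* of replicate 1 also lie inside the range of those 9, above 8 and 7 of them, and *Flt4* is at 16.7 NRPKM.

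Genes called up- or down-regulated between compartments had an unadjusted P up to 0.05 and FC ≥ 2, and fold changes are on the log2(NRPKM + 0.1) scale, which understates changes of low genes. Each value is a log2 FC ± SE, and the adjusted P is from limma. Between WT proliferative and WT resting chondrocytes, 2 of the 6 members tested were called, both higher, against 5.53% of all genes tested, 2.56% higher. *Nrp1* rose by 2.49 ± 0.23 (adjusted P = 0.014), where 0.622% of all genes had an adjusted P under 0.05, and *Flt4* rose by 1.71 ± 0.39 (adjusted P = 0.13). Same-numbered resting and proliferative libraries deviated together, and a fit blocked on that number gave an adjusted P of 0.071 for *Nrp1* and of 0.16 for *Flt4*. The *Flt4* call was lost with a pseudocount of 1 (0.85, adjusted P = 0.15) and with a variance trend (adjusted P = 0.44). *Vegfa* was lower in all 3 proliferative than in all 3 resting libraries, as were 14.2% of all genes, with a value of -0.89 ± 0.28 (adjusted P = 0.21) that was short of the FC criterion. *Vegfb* (-0.82), *Nrp2* (0.62) and *Pgf* (-0.12) did not pass, and their 95% intervals included 0. In the fit without the filter, where 7.26% of genes were called, *Kdr* (0.55), *Flt1* (0.67) and *Vegfc* (-1.33) did not pass either, and 2 of the 9 were called, *Nrp1* (adjusted P = 0.057) and *Flt4* (adjusted P = 0.3).

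Between WT hypertrophic and WT proliferative chondrocytes, 2 of 6 members were called, both higher, against 9.67% of all genes tested and 5.32% higher. *Flt4* rose by 3.64 ± 0.36 (adjusted P = 0.079) and *Nrp2* by 1.52 ± 0.37 (adjusted P = 0.15). In limma 0 of 10936 genes passed an adjusted P under 0.05 in this comparison, and 2115 (19.3%) had an unadjusted P under 0.05. Without hypertrophic replicate 1, 18.4% of all genes were called and 4 of 6 members were. Replicate 1 was set apart with the values of these data known. P values of fits without it therefore describe the libraries kept and are no separate support. Then *Pgf* was at 5.39 ± 1.64 (adjusted P = 0.081), *Flt4* at 3.75 ± 0.41 (adjusted P = 0.0087), *Nrp2* at 1.59 ± 0.43 (adjusted P = 0.062) and *Nrp1* at 1.22 ± 0.20 (adjusted P = 0.021). With all 3 libraries, *Pgf* was at 3.66 ± 1.94 (adjusted P = 0.34) and *Nrp1* at 0.63 ± 0.51 (adjusted P = 0.5), and neither was called. *Vegfa* was at 0.56 ± 0.37 (adjusted P = 0.42), and at 0.94 ± 0.22 (adjusted P = 0.041, short of the FC criterion) without replicate 1. *Vegfb* was at 0.12 ± 0.49. In the fit without the filter, where 9.42% of genes were called, 5 of the 9 members were, *Flt4* (adjusted P = 0.071) and *Nrp2* (adjusted P = 0.3) among them. There *Vegfc* rose by 3.47 ± 0.88 (adjusted P = 0.29), *Kdr* by 3.03 ± 1.07 (adjusted P = 0.39) and *Flt1* by 2.81 ± 1.0 (adjusted P = 0.39). Without replicate 1, where 18.7% of genes were called, *Vegfc* was at 4.26 (adjusted P = 0.055), *Kdr* at 4.22 (adjusted P = 0.03) and *Flt1* at 3.86 (adjusted P = 0.046). The *Kdr* call was lost with any other library left out (2.31 to 3.23), and the *Flt1* call without proliferative replicate 1 or 2 or hypertrophic replicate 2 or 3 (2.16 to 2.78).

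Between WT hypertrophic and WT resting chondrocytes, 4 of 6 members were called, all higher, against 13.0% of all genes tested and 5.84% higher. *Flt4* rose by 5.35 ± 0.29 (adjusted P = 0.00081), *Nrp1* by 3.12 ± 0.52 (adjusted P = 0.025), *Nrp2* by 2.14 ± 0.22 (adjusted P = 0.006) and *Pgf* by 3.54 ± 1.42 (adjusted P = 0.18). An adjusted P under 0.05 was reached by 6.36% of all genes. Without hypertrophic replicate 1, with 19.2% of all genes called, *Flt4* was at 5.46, *Nrp1* at 3.71, *Nrp2* at 2.21 and *Pgf* at 5.27 (adjusted P = 0.0014). As above, that library was left out with its values known, which limits the P values of fits without it. The *Pgf* values rest on about 234 reads in hypertrophic and 7 in resting libraries, a ratio per depth of 30.9 with a 95% exact interval of 14.8 to 77.8 for counting error only. The *Pgf* call was lost without the filter (adjusted P = 0.32), with quantile normalization (adjusted P = 0.24), with all 12 libraries in 1 fit (adjusted P = 0.17), with the replicate number blocked (adjusted P = 0.21) and with any library left out other than hypertrophic replicate 1, at 2.59 to 3.77. *Vegfb* was lower in all 3 hypertrophic libraries, as were 17.8% of all genes, at -0.70 ± 0.26 (adjusted P = 0.15), short of the FC criterion. *Vegfa* was at -0.34 ± 0.43 (adjusted P = 0.65). In the fit without the filter, in which 12.5% of genes were called, 6 of the 9 members were, with adjusted P = 0.0083 for *Flt4*, 0.075 for *Nrp1* and 0.033 for *Nrp2*. There *Kdr* (3.57 ± 1.12, adjusted P = 0.21), *Flt1* (3.48 ± 0.92, adjusted P = 0.15) and *Vegfc* (2.14 ± 0.84, adjusted P = 0.29) were also called. Without replicate 1, with 19.4% of genes called, *Kdr* was at 4.76 (adjusted P = 0.023), *Flt1* at 4.53 (adjusted P = 0.0057) and *Vegfc* at 2.93 (adjusted P = 0.066). The *Kdr* call was lost without resting replicate 1 or hypertrophic replicate 2 or 3 (2.86 to 3.10), and that of *Vegfc* without any of these or resting replicate 3 (1.64 to 2.12). Over all 4 groups, the moderated F test passed *Flt4* (F = 52.4, adjusted P = 0.00042), *Nrp2* (F = 19.9, adjusted P = 0.005) and *Nrp1* (F = 18.9, adjusted P = 0.0055), where 13.8% of all genes passed. Without the filter the same 3 of the 9 members passed, with adjusted P = 0.0022 for *Flt4* and 0.022 for each neuropilin.

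**Figure D4:**
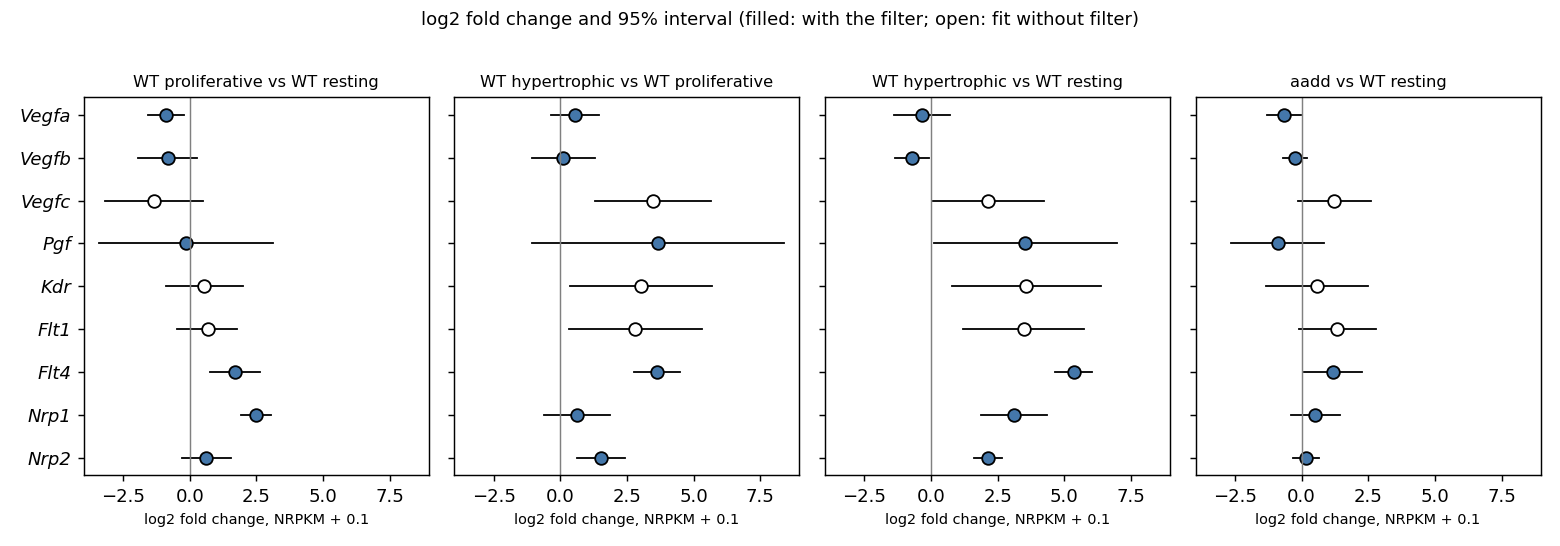
log2 fold change on the NRPKM + 0.1 scale (x axis) with its 95% interval for each member in 4 comparisons, filled where the gene passed the filter and open where the fit was made without it. In hypertrophic against resting chondrocytes the interval of *Flt4* runs from 4.65 to 6.05 and that of *Nrp2* from 1.61 to 2.67, and those of *Kdr*, *Flt1* and *Pgf* are wide.

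Between *aadd* and WT resting chondrocytes, with FC ≥ 1.5, 1 of 6 members was called higher and 1 lower, against 6.56% of all genes tested, 3.78% higher and 2.78% lower. *Vegfa* was lower in all 3 *aadd* than in all 3 resting libraries, as were 7.34% of all genes, with means of 24.6 ± 2.19 and 40.7 ± 15.2 NRPKM (SD, n = 3) and a log2 FC of -0.66 ± 0.27 (adjusted P = 0.51). *Flt4* was 1.18 ± 0.46 higher (adjusted P = 0.48), with overlapping groups. Only 0.119% of all genes had an adjusted P under 0.05. Both calls turned on the processing. *Vegfa* was called in 5 of 15 alternatives and *Flt4* in 7 of 14, and both were lost without the filter, where 5.82% of genes were called. The *Vegfa* call held only without resting replicate 1 among the libraries left out, with -0.38 without resting replicate 2, which held the highest *Vegfa* value, and -0.59 to -0.72 without resting replicate 3 or any *aadd* library. Without *aadd* replicate 2, which had the highest endothelial sum of the 9 non-hypertrophic libraries (59.6 NRPKM), *Flt4* was at 0.73 and no longer called, and the part of endothelial cells in this was not tested. The *Flt4* call was also lost without resting replicate 1 (0.91) or 2 (1.24) or *aadd* replicate 3 (1.18). *Vegfb* (-0.24), *Nrp1* (0.52), *Nrp2* (0.17) and *Pgf* (-0.88) did not pass. In the fit without the filter, *Vegfc* (1.22 ± 0.55), *Flt1* (1.34 ± 0.59) and *Kdr* (0.59 ± 0.78) did not pass either, with adjusted P = 0.75 or more.

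Other genes of the pathway were taken as 5 lists, and their counts stand beside the shares of all genes called, which were 5.53% in proliferative against resting, 9.67% in hypertrophic against proliferative, 13.0% in hypertrophic against resting and 6.56% in *aadd* against resting chondrocytes. With hypertrophic replicate 1 left out, 18.4% of all genes were called against proliferative and 19.2% against resting chondrocytes. Of the transcription factors and oxygen sensors that act on *Vegfa*, 15 of 17 were tested. In hypertrophic against resting chondrocytes 4 rose and none fell, with a list median log2 FC of 0.15 against -0.02 over all genes. These were *Sp7* (4.81, adjusted P = 0.016) and *Runx2* (1.97, adjusted P = 0.013), bone transcription factors that also rose in proliferative against resting chondrocytes (4.10 and 1.43), *Epas1* (1.89, adjusted P = 0.068), which encodes HIF-2α, and *Zfp36* (1.65, adjusted P = 0.058), an RNA-binding protein that destabilizes transcripts. *Epas1* measured 18.9, 45 and 37 NRPKM in hypertrophic libraries and 4.73 to 17.1 elsewhere. *Hif1a* was not called in any of the 4 comparisons and measured 34.4 to 64.1 NRPKM across the 12 libraries. *Egln3*, an oxygen-sensing hydroxylase, fell by 2.29 on the log2 scale in proliferative against resting chondrocytes (adjusted P = 0.15). In hypertrophic against proliferative chondrocytes *Epas1*, *Zfp36* and *Zfp36l1* rose and none fell, with a median of 0.31 against 0.04, and in *aadd* against resting *Zfp36l1* rose by 0.66 (adjusted P = 0.35). The counts without hypertrophic replicate 1 were 4 higher and none lower against each of resting and proliferative chondrocytes.

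Of the class 3 semaphorins, which are the other ligands of the neuropilins, and their plexin receptors, 10 of 12 were tested. In hypertrophic against resting chondrocytes 3 rose and 1 fell, with a median of 0.38. *Plxnd1*, a plexin of vessels, rose by 3.23 (adjusted P = 0.025), with 22.3, 78.5 and 76.6 NRPKM in hypertrophic libraries and 4.39 to 7.26 in resting. Its proliferative values were 24.9, 13.7 and 15.3 NRPKM, a range that held hypertrophic replicate 1. *Plxna2* rose by 2.91 (adjusted P = 0.013) and *Sema3b* by 2.35 (adjusted P = 0.025), whereas *Sema3c* fell by 2.35 (adjusted P = 0.053). In hypertrophic against proliferative chondrocytes 3 rose, led by *Sema3b* (2.03), and *Sema3c* fell by 1.62, with a median of 0.92. In proliferative against resting chondrocytes 2 rose and 2 fell, with a median of -0.46. In *aadd* against resting 5 of the 10 rose and none fell, where 3.78% of all genes rose, with a median of 0.65 against 0.01 over all genes. Of these *Plxna4*, a receptor partner of neuropilin 1, rose by 2.35 ± 0.17 (adjusted P = 0.013), from 2.86, 2.51 and 2.41 to 15.4, 12.2 and 13.2 NRPKM. *Plxna2* rose by 1.18 and *Sema3a*, *Sema3c* and *Sema3f* by 0.65 to 0.69, each with an adjusted P of 0.35 to 0.47. Leaving out hypertrophic replicate 1, 5 rose and 1 fell against resting and 5 rose and 2 fell against proliferative chondrocytes.

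Of the genes for matrix binding and release of VEGF, 9 of 12 were tested. *Mmp9*, the gelatinase of osteoclasts, measured 10.3, 422 and 378 NRPKM in hypertrophic libraries, *Mmp13* 3.05, 735 and 661 and *Mmp14* 62.1, 197 and 189. Against resting chondrocytes 3 rose and 1 fell, with a median of 0.75, and the fitted values were 5.97 for *Mmp9* (adjusted P = 0.063), 5.36 for *Mmp13* (adjusted P = 0.17) and 1.19 for *Mmp14* (adjusted P = 0.18). *Sulf2*, a heparan sulfatase, fell by 1.40 (adjusted P = 0.048). Against proliferative chondrocytes only *Mmp9* of the 9 was called (4.62, adjusted P = 0.21). *Sulf1*, the related sulfatase, fell by 1.60 in proliferative against resting chondrocytes (adjusted P = 0.16) and rose by 1.61 in *aadd* (adjusted P = 0.18), where 2 of the 9 rose. With hypertrophic replicate 1 left out, 5 rose, *Mmp13* among them, and 1 fell against resting, and 4 rose, again with *Mmp13*, and 2 fell against proliferative chondrocytes. *Mmp9*, *Mmp13* and *Mmp14* were higher in hypertrophic replicates 2 and 3, where osteoclast and endothelial markers were also high, and the part of those cells in these values was not tested.

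Of the antiangiogenic cartilage factors, 6 of 8 were tested. *Lect1*, which encodes chondromodulin, measured 225, 39.3 and 62.8 NRPKM in hypertrophic libraries against 323 to 473 in resting, and fell by 2.27 (adjusted P = 0.085). *Thbs1*, which encodes thrombospondin 1, fell by 1.30 (adjusted P = 0.069), and the list median was 0.47. Against proliferative chondrocytes *Lect1* fell by 2.31 and *Thbs1* by 1.39, while *Timp3*, an inhibitor of metalloproteinases, rose by 1.13 (adjusted P = 0.17). None of the 6 was called between proliferative and resting chondrocytes, and in *aadd* *Serpinf1* fell by 0.64 (adjusted P = 0.44). When hypertrophic replicate 1 was left out, 1 rose, *Serpinf1*, and 2 fell, *Lect1* and *Thbs1*, against resting chondrocytes. Against proliferative chondrocytes 2 rose, *Serpinf1* and *Timp3*, and the same 2 fell. *Serpinf1* measured 34, 118 and 155 NRPKM in hypertrophic libraries and 40.1 to 49.5 in resting. The summed cartilage matrix markers were also lower in hypertrophic replicates 2 and 3, and the part of cell content in these values was not tested. Of the VEGF signal transduction genes, 29 of 35 were tested. In hypertrophic against resting chondrocytes 4 of the 29 rose and none fell, where 13.0% of all genes were called and 5.84% were higher, with a median of 0.32. They were *Ptprj*, a phosphatase that acts on the VEGFR2 pathway (2.91, adjusted P = 0.04), *Fyn* (1.30), *Pik3r1* and *Grb2* (1.11). Against proliferative chondrocytes 5 rose and none fell, *Cav1*, *Ptprj*, *Fyn*, *Src* and *Pik3r1*. Between proliferative and resting chondrocytes 1 rose and 1 fell, and in *aadd* 2 rose. Without hypertrophic replicate 1, 6 of the 29 rose and none fell against resting, where 19.2% of all genes were called, and 8 rose and 1 fell against proliferative chondrocytes, where 18.4% were called.

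Over the 12 libraries the genes whose log2 values were most like each member's were named as a description. These points share 4 groups and hypertrophic replicates 2 and 3, and the r values carry no test. Only genes that passed the filter were searched, which included 3 of the 10 endothelial markers. The gene most like *Flt4* was *Fmn1* (r = 0.971), followed by *Fam214a* and *Phex* of the osteoblast list (0.963). *Gpr116* (0.956) and *Dkk1* (0.955) came next. For *Nrp2* it was *Heg1* (0.960), followed by *Maml3* (0.959), *Btla* (0.958), *Spns2* (0.957) and *2310022B05Rik* (0.955). *Ston2* (0.964) and *Lcp1* (0.959) led for *Nrp1*. *Vav2* (0.941), *S1pr1* (0.938) and *Bcar1* (0.938) followed for *Nrp1*. For *Kdr* *Gimap4* (0.962) and *Ets1* (0.958) ranked first, before *Ifnar2* (0.945), *Cd68* of the macrophage list (0.942) and *Ap2s1* (0.942). First for *Flt1* was *Cd93* (0.968), for *Pgf* *Spi1* (0.989), and for *Vegfc* *Igfbp3* (0.953). *Vegfa* had the lowest leading value of the 9, 0.884 for *Nr1h2*, and *Vegfb* had 0.939 for *Mrpl19*.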

How the data were processed

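RNA was captured by laser microdissection, amplified with the NuGen Ovation system and sequenced after Nextera tagmentation. The authors removed reads of low quality, multiple alignment and duplication, aligned to mm10 (TopHat is named in the submitters' processing notes) and deposited RPKM values normalized further between libraries (NRPKM), 36186 rows on a linear scale. How they were normalized, and whether strand was used, are not given in the sources used here. The value of 1 read was taken from the short receptor and keratin-associated protein genes, and reads behind a gene are approximate.

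The members and lists were chosen with earlier results of these data known. Each comparison was a limma 3.58.1 fit (R 4.3.3) to log2(NRPKM + 0.1) of its 6 libraries, limited to rows that reached 5 NRPKM in 3 or more of the 12, with Benjamini-Hochberg adjustment over all rows tested. A gene was called at an unadjusted P up to 0.05 and FC of at least 2, or 1.5 for *aadd*. Named genes were the 9 members and *Figf*, up to 5 of the genes most correlated with each member, and at most 5 called genes of each pathway list in a comparison. Some list genes and cell type markers that were not called were named as well. Same-numbered libraries deviated together for resting against proliferative chondrocytes (r = 0.281, 0.179 and 0.198). For replicates 1, 2 and 3, r was 0.066, 0.063 and 0.111 for resting and hypertrophic libraries. It was -0.058, 0.054 and 0.124 for proliferative and hypertrophic, and 0.051, 0.280 and -0.097 for resting and *aadd*. The fit was tested on simulated data for proliferative against resting chondrocytes only, drawn independently with the variances of those groups. The simulation held no split like that of hypertrophic replicate 1, so it does not cover the comparisons with hypertrophic libraries. Alternatives were another pseudocount, filter, scaling, fit of all 12 libraries, replicate block, variance trend and each library left out.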

Additional observations from a re-analysis of the deposited data

How the results depend on the processing

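The number of members called was most open to the filter and to hypertrophic replicate 1. In proliferative against resting chondrocytes it was 2, and 1 with a pseudocount of 1, with the filter taken over the 6 libraries compared and with a variance trend. In hypertrophic against proliferative chondrocytes it was 2, and 5 without the filter and with the filter of 2 libraries (added after seeing the data), and 2 to 4 with each library left out. In hypertrophic against resting chondrocytes it was 4, 6 without the filter, 7 with the filter of 2 libraries and 3 to 4 with each library left out. In *aadd* against resting it was 2, then 3 with the filter of 2 libraries (*Vegfc*, *Flt1* and *Flt4*, with *Vegfa* lost), 0 without the filter, 1 with a pseudocount of 1, the 6-library filter, quantile normalization, all 12 libraries in 1 fit, the replicate block or the variance trend, and 0 to 1 with each library left out. Over 4 groups it was 3, and 3 to 5 with each library left out, 5 without hypertrophic replicate 1. The causes were not tested beyond the libraries and genes that each alternative leaves out.

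With the replicate block the members called were 2, 2, 3 and 1 in the order of the comparisons above; it lost *Pgf* in hypertrophic against resting chondrocytes and *Vegfa* in *aadd*, added *Vegfc* in *aadd* without the filter, and changed no other call of a member. The values that changed sign were those of *Pgf* in proliferative against resting chondrocytes (0.35 with a pseudocount of 1, -1.73 to 1.12 over each library left out, 0.02, 0.11, 0.23 and 1.12 where reversed), *Kdr* there (-0.01 without resting replicate 1), *Vegfb* in hypertrophic against proliferative (-0.39 without proliferative replicate 3, -0.39 to 0.52 over each left out), *Vegfa* in hypertrophic against resting (0.05 without hypertrophic replicate 1, -0.65 to 0.05) and *Nrp2* in *aadd* (-0.02 without resting replicate 3, -0.02 to 0.27). Over all genes, calls without the filter were 1632, 2120, 2769 and 1300 against 605, 1057, 1426 and 717, and in hypertrophic against proliferative chondrocytes 2007 without hypertrophic replicate 1 and 658 without replicate 3. A few members became called with 1 library left out: in proliferative against resting chondrocytes *Vegfa* without resting replicate 1 (-1.13), *Vegfb* without proliferative replicate 1 (-1.22), *Nrp2* without proliferative replicate 2 (1.01), *Pgf* without proliferative replicate 3 (-1.73) and *Flt1* without proliferative replicate 1 (1.06), in hypertrophic against proliferative *Pgf* without proliferative replicate 3 (5.27), and in *aadd* *Vegfc* without resting replicate 2 (1.72) and *Flt1* without *aadd* replicate 2 (0.69) or 3 (1.70). About 10 reads or fewer lie behind *Kdr*, *Flt1*, *Vegfc* and *Pgf* in several libraries, which limits their folds.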
